A study of Mus musculus with 16 samples.

Results

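The pyruvate dehydrogenase genes described here are 9 of the 49585 gene identifiers counted in mouse neutrophil libraries. They were taken by symbol: 4 kinase genes (Pdk1, Pdk2, Pdk3 and Pdk4), 3 subunit genes of the complex (Pdha1, Pdhb and Dlat) and 2 phosphatase genes (Pdp1 and Pdp2). RNA was sequenced from 16 libraries of cells that the study describes as neutrophils isolated by flow cytometry, in 4 groups of 4. P2KO libraries carry the label Vav:cre-PHD2f/f, a Cre-driven deletion of the oxygen-sensing prolyl hydroxylase PHD2 (gene Egln1). P2H2KO libraries carry the label Vav:cre-PHD2/HIF2ff/ff, a deletion of PHD2 together with HIF2 (the transcription factor HIF2α, gene Epas1). P2WT and P2H2WT are the wild-type groups of these lines. All mice are labelled C57BL/6, 8 to 12 weeks old, with bones as the tissue. The Vav promoter acts in blood-forming cells generally, so Cre was not limited to neutrophils. Whether each library came from 1 mouse is not given in the labels, so p-values measure the spread between these libraries, which may be technical.

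Pyruvate dehydrogenase is the mitochondrial complex that turns pyruvate, the end product of glycolysis, into acetyl-CoA for the tricarboxylic acid cycle. Its E1 component, built from the Pdha1 and Pdhb products, removes carbon dioxide from pyruvate, and its E2 component, the Dlat product, passes the acetyl group to coenzyme A. The PDK kinases phosphorylate the Pdha1 product and switch the complex off, and the PDP phosphatases remove the phosphate and switch it on again. PHD2 marks HIF proteins for breakdown when oxygen is present, and PDK1 is a textbook target of HIF1 that is switched on in hypoxia. Neutrophils are known to live mostly from glycolysis.

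The libraries held between 23450746 and 28601284 counts each. The 24 pairs of libraries within groups had Pearson correlations of log2 CPM (counts scaled to the library size) from 0.971 to 0.994, and no pair agreed within sampling noise. Summed over the 12 neutrophil markers, the level was 32693 to 76823 CPM in P2KO, 41848 to 64268 in P2WT, 45592 to 85072 in P2H2KO and 47583 to 73366 in P2H2WT. The 11 erythroid markers in the tables summed to between 25646 and 52029 CPM, so the libraries also held RNA of the red cell lineage. P2KO replicate 6 (replicates are numbered as in the library titles) had the highest neutrophil sum of its group and the lowest erythroid sum, 25808 CPM. The targeted genes did not check the labels. Egln1 stood at 43.0 to 58.2 CPM in P2KO against 46.1 to 51.6 in P2WT, and at 49.0 to 58.6 in P2H2KO against 47.7 to 54.6 in P2H2WT. Epas1 stood at 3.41 to 8.28 CPM in P2H2KO against 2.58 to 5.02 in P2H2WT. In the P2 line, where it was not targeted, it stood at 6.73 to 24.2 CPM in P2KO and 8.73 to 11.2 in P2WT. These are counts over whole genes, in which deleted exons cannot be seen.

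Pdk1 (ENSMUSG00000006494) encodes the kinase isoform best known for its induction by low oxygen, and it spans chr2:71873224-71903858 on the plus strand of GRCm38. Its promoter and that of Pdk3 are shown because Pdk1 was the member with the largest difference, while Pdk3 held more copies of the core letters that HIF proteins bind. The sequences are from RefSeq on GRCm38.p6 and run from 250 bases before the start site to 10 bases after it, 5′ to 3′ on the strand of the gene. Pdk1 is at chr2:71872974-71873233, plus strand, and Pdk3 at chrX:93832141-93832400, minus strand. Capitals mark ACGTG or GCGTG on either strand, so that CACGC in capitals is GCGTG on the other strand.
Pdk1: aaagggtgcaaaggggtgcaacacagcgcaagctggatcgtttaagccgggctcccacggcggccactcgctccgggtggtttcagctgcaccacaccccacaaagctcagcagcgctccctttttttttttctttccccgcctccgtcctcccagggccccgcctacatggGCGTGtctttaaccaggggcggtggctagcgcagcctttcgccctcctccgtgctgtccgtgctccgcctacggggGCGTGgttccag
Pdk3: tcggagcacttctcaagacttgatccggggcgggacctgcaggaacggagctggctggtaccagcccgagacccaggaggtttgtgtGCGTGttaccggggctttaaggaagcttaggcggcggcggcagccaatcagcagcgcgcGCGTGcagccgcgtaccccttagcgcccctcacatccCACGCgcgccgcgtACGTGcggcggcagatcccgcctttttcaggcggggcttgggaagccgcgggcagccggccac
The letters were searched from 250 bases before to 50 bases after the start, and CACGTG, which reads ACGTG on both strands, was counted as 2 matches. The Pdk1 window held GCGTG 78 and 2 bases before the start, and a second RefSeq start of Pdk1 held no match. Pdk3 held 4 matches, at 163, 104, 67 and 53 bases before the start. Pdha1 also held 4 matches, Pdhb and Pdp2 held 2 each, Pdk4 held 1 and Dlat held 0. Pdk2 held 2 matches at 1 start and 0 at another, and Pdp1 had no window in the table. Of 32851 mouse windows of this length, 43.8% held at least 1 match, 20.6% at least 2 and 3.86% at least 4. The matches are a description of letters, and their relation to the differences below was not tested.

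Pdk1 RNA was higher in both deficient groups than in their controls. In P2KO it stood at 53.5, 46.8, 41.2 and 52.2 CPM (replicates 1, 5, 6 and 9), against 29.8, 36.6, 33.8 and 31.9 CPM in P2WT (replicates 3, 4, 7 and 10). All 4 P2KO libraries lay above all 4 P2WT libraries, and replicate 6 was the lowest of its group. The means were 48.4 ± 5.61 and 33.0 ± 2.89 CPM (SD, n = 4 each), a log2 fold change of 0.57 (SE 0.096) or 1.48-fold, with a 95% interval from 0.35 to 0.78. With edgeR's quasi-likelihood test over 13734 genes the adjusted p was 0.210, above the threshold of 0.05, and Pdk1 ranked 13 by p.

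In P2H2KO, Pdk1 stood at 51.0, 50.4, 56.4 and 49.1 CPM (replicates 11, 12, 15 and 17), against 35.8, 29.4, 35.3 and 28.4 CPM in P2H2WT (replicates 13, 14, 16 and 18). Again no library of one group overlapped the other. The means were 51.7 ± 3.25 and 32.2 ± 3.86 CPM (SD, n = 4 each), a log2 fold change of 0.70 (SE 0.093) or 1.62-fold, with a 95% interval from 0.49 to 0.91. In this line Pdk1 rose, with an edgeR adjusted p of 0.0461 over 13435 genes and rank 9 by p. The call was close to the threshold: leaving out any 1 of the 8 libraries gave edgeR adjusted p from 0.0949 to 0.179. In bulk RNA, a change in the share of cells that express Pdk1 and a change in Pdk1 RNA per cell cannot be told apart.

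Averaged over both lines in a fit of all 16 libraries, Pdk1 rose by 0.63 on the log2 scale (SE 0.068, 95% interval 0.48 to 0.77), 1.54-fold, with an edgeR adjusted p of 0.000185 over 14080 genes. Its rank by p was 10. This call held in all 8 alternative analyses and all 16 fits that left out 1 library, with log2 values from 0.60 to 0.66. In the same fit of 16 libraries the P2 line alone gave 0.56 with an edgeR adjusted p of 0.0473. The effects in the lines were not distinguishable: P2 minus P2H2 was -0.14 (SE 0.14, 95% interval -0.43 to 0.15, edgeR adjusted p 0.999). That interval still allows the rise to be weaker in the P2 line by 0.43, or stronger by 0.15, on the log2 scale.

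Markers of other cells stood beside these values. All 14 monocyte and macrophage markers and all 10 T and NK cell markers had lower values in P2KO than in P2WT, with 4 of each at an unadjusted p under 0.05 and none past the adjusted threshold. Their sums were 2419 to 3131 CPM in P2KO against 3143 to 3865 in P2WT for the first list, and 71.4 to 97.01 against 100.4 to 115.7 for the second. Of the 12 neutrophil markers, 8 had lower values in P2KO than in P2WT, and all 11 erythroid markers had higher values, with 0 of each at an unadjusted p under 0.05. Of 12 cell cycle markers, 11 had higher values in P2KO and 11 had lower values in P2H2KO, also with 0 under that threshold. In P2H2KO against P2H2WT, all 12 neutrophil markers had higher and all 11 erythroid markers lower values, with 1 and 0 at an unadjusted p under 0.05. Of the 14 monocyte and macrophage markers, 10 had lower values there, 7 of them at an unadjusted p under 0.05 (median log2 fold change -0.20), with sums of 2641 to 4788 CPM in P2H2KO and 2871 to 4630 in P2H2WT. In the mean of the effects, 13 of these 14 were lower with 8 under the unadjusted threshold, and 8 of the 10 T and NK cell markers were lower with 5. All 10 B cell markers had lower values in P2H2KO (median -0.34, 0 under the unadjusted threshold), against 3 of 10 in P2KO.

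Markers of 2 further lists had higher values in both lines, as Pdk1 did. The 6 megakaryocyte markers were higher in 6 of 6 for P2 (median 0.52) and 5 of 6 for P2H2 (median 0.39), with 0 and 1 at an unadjusted p under 0.05. Their sums were 44.5 to 183.4 CPM in P2KO, 40.3 to 93.7 in P2WT, 29.9 to 80.7 in P2H2KO and 38.9 to 45.4 in P2H2WT. Of the 8 endothelial markers, 7 were higher in each line (medians 0.44 and 0.44), with 1 and 2 at an unadjusted p under 0.05 and 3 in the mean. None of the markers in these lists passed the adjusted threshold in either line or in the mean. P2KO replicate 9 had the highest megakaryocyte and endothelial sums of all libraries, 183.4 and 158.9 CPM. With an erythroid and a late granule score as covariates, the log2 fold change of Pdk1 was 0.54 in the P2 line and 0.66 in the P2H2 line, with edgeR adjusted p of 0.0483 and 0.0109. The part of the monocyte, macrophage, T, NK and B cell, cell cycle, megakaryocyte and endothelial markers in the Pdk1 result was not tested.

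**Figure D1:**
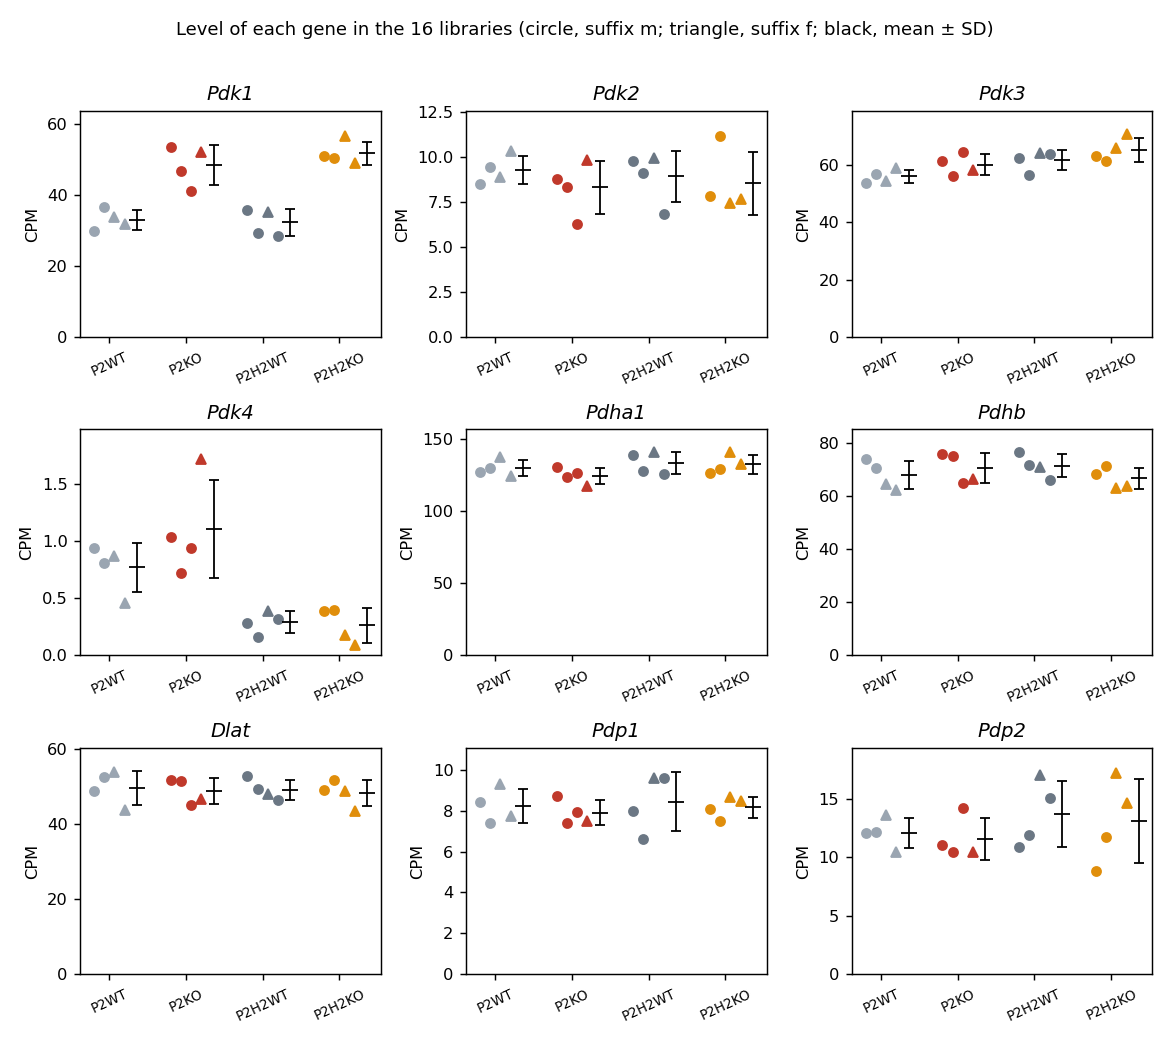
Level of each of the 9 genes in CPM (y axis, from 0) for the 4 groups (x axis), with 1 point per library and the mean ± SD in black. Pdk1 is the gene whose deficient libraries all lie above their controls in both lines, from 41.2 to 56.4 against 28.4 to 36.6 CPM. Pdk4, near the limit of detection, stood at 0.463 to 0.942 CPM in P2WT and 0.159 to 0.391 in P2H2WT. That difference did not pass the edgeR test (adjusted p 0.160).

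None of the other 8 genes passed the test in either line. In P2KO against P2WT, edgeR called 0 of the 9 genes, against 0.0437% of all genes tested (6 of 13734), and 1 of 9 (Pdk1) was under an unadjusted p of 0.05, against 3.49%. DESeq2 called 1 of the 9, Pdk1. The groups did not overlap for 1 of 9, Pdk1, against 2.32% of all genes. In P2H2KO against P2H2WT, 1 of the 8 genes tested was called, against 0.0744% (10 of 13435), and the same 1 was under the unadjusted threshold, against 2.63%. Groups did not overlap for Pdk1 alone among the 8 genes tested there, against 1.97%. For the difference of the effects, edgeR called 0 of 9 and 0% of all genes, with 0 of 9 and 1.51% at an unadjusted p under 0.05, and DESeq2 also called 0. For the mean of the effects, 1 of 9 was called against 0.170%, and 2 of 9 (Pdk1 and Pdk3) were under the unadjusted threshold against 3.72%.

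**Figure D2:**
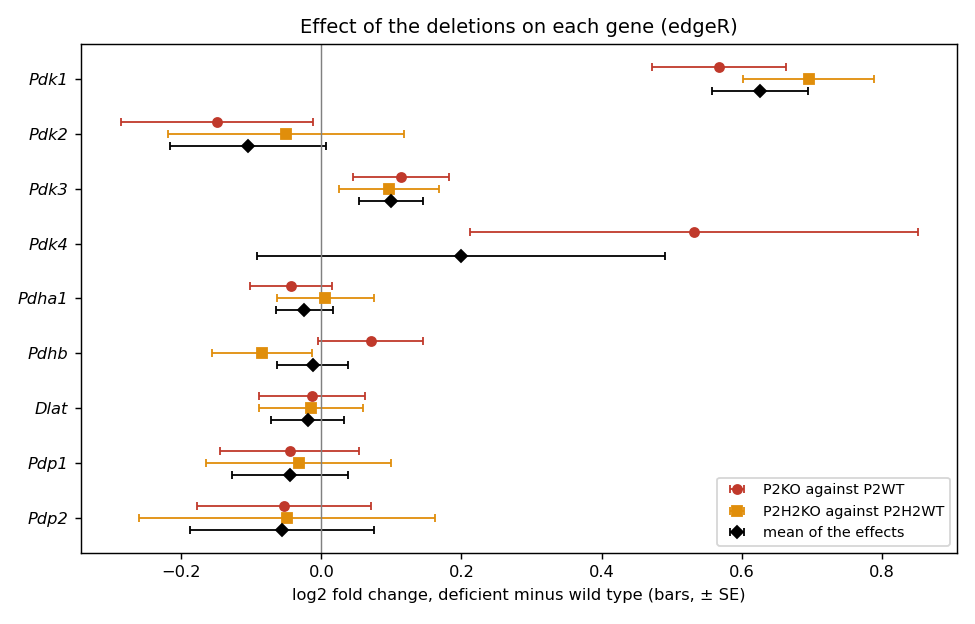
Log2 fold change (x axis, deficient minus wild type, bars ± SE) of each gene (y axis) in the P2 line, the P2H2 line and their mean. Pdk1 stands at 0.57, 0.70 and 0.63. Pdk4 stands at 0.53 in the P2 line and 0.20 in the mean, and was not tested in the P2H2 line. The others lie between -0.15 and 0.11.

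Pdk3 (ENSMUSG00000035232, chrX:93764607-93832201, minus strand) was the kinase with the most RNA. It stood at 61.2, 56.2, 64.4 and 58.3 CPM in P2KO (replicates 1, 5, 6 and 9) and at 53.8, 56.9, 54.3 and 58.9 in P2WT (replicates 3, 4, 7 and 10). These groups overlapped, with a log2 fold change of 0.11 (SE 0.068, 95% interval -0.041 to 0.27). In P2H2KO it stood at 63.2, 61.3, 65.7 and 70.7 CPM (replicates 11, 12, 15 and 17), and in P2H2WT at 62.5, 56.3, 64.0 and 63.7 (replicates 13, 14, 16 and 18). The groups overlapped again, with a log2 fold change of 0.096 (SE 0.071, 95% interval -0.064 to 0.26). The mean of the effects was 0.10 (SE 0.046) with an unadjusted edgeR p of 0.0471 and an adjusted p of 0.9998, and their difference was 0.0065 (SE 0.092). The interval of the mean effect, 0.0015 to 0.20, lay below that of Pdk1.

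Pdk2 (ENSMUSG00000038967, chr11:95026258-95041354, minus strand) encodes a kinase isoform found in most tissues. It stood at 8.32 ± 1.49 CPM in P2KO and 9.30 ± 0.790 in P2WT, and at 8.54 ± 1.77 in P2H2KO and 8.93 ± 1.42 in P2H2WT (SD, n = 4 each). Its log2 fold change was -0.15 (SE 0.14) for P2 and -0.051 (SE 0.17) for P2H2, with groups that overlapped each time. For P2 the Pdk2 value was -0.036 without P2KO replicate 6, -0.24 without P2KO replicate 9 and -0.084 without P2WT replicate 10. The lowest library was P2KO replicate 6, at 6.30 CPM, and the highest P2H2KO replicate 12, at 11.2 CPM.

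Pdk4 (ENSMUSG00000019577, chr6:5483351-5496309, minus strand) encodes the kinase known for its induction in fasting. It was near the limit of detection, with between 2 and 45 counts per library. In P2KO it stood at 1.04, 0.722, 0.945 and 1.72 CPM (replicates 1, 5, 6 and 9) and in P2WT at 0.942, 0.812, 0.874 and 0.463 (replicates 3, 4, 7 and 10). These groups overlapped, with a log2 fold change of 0.53 (SE 0.32, 95% interval -0.19 to 1.25). That Pdk4 value was 0.23 without P2KO replicate 9, its highest library, and 0.35 without P2WT replicate 10, its lowest in the line. In the P2H2 line it did not pass the filter on low counts, at 0.0890 to 0.402 CPM in P2H2KO and 0.159 to 0.391 in P2H2WT. Without the filter its log2 fold change there was -0.13 (SE 0.47, unadjusted edgeR p 0.786).

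The share of each isoform in the summed kinase RNA was taken from CPM per kilobase of merged exons. Pdk3 held 74.7 ± 0.927% in P2WT and 77.4 ± 2.30% in P2H2WT, and 71.9 ± 3.49% in P2KO and 72.9 ± 2.33% in P2H2KO (SD, n = 4 each). Pdk1 held 16.2 to 20.3% in P2KO against 13.4 to 15.6% in P2WT, and 17.3 to 20.5% in P2H2KO against 11.9 to 14.3% in P2H2WT. The Pdk1 shares did not overlap in either line, so the isoform mix had more Pdk1 in the deficient libraries, with Pdk3 still the main isoform in each of the 16. Pdk2 held 6.09 to 10.7% over all libraries and Pdk4 at most 1.48%. The summed kinase level was 32.6 ± 1.30 CPM per kilobase in P2KO against 29.3 ± 1.28 in P2WT, and 34.9 ± 1.19 in P2H2KO against 31.1 ± 1.80 in P2H2WT, with no overlap in either line. These shares and sums contain the Pdk1 values above and are not independent of them. The ratio of Pdk1 to Pdk3 was 0.211 to 0.295 in P2KO and 0.178 to 0.211 in P2WT, where P2KO replicate 6 lay just below P2WT replicate 4. It was 0.228 to 0.283 in P2H2KO and 0.147 to 0.189 in P2H2WT, with no overlap.

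**Figure D3:**
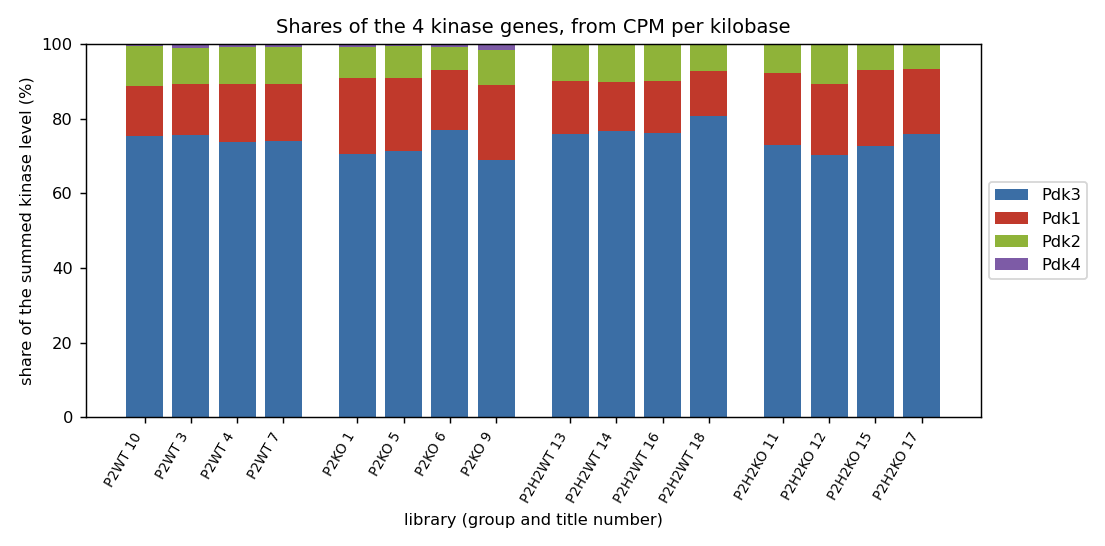
Share of each kinase gene (y axis, % of the summed CPM per kilobase) in each of the 16 libraries (x axis, group and title number). The red segment, Pdk1, spans 16.2 to 20.5% in deficient and 11.9 to 15.6% in wild-type libraries, and the blue segment, Pdk3, is the largest in every bar.

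The subunit genes of the complex showed no difference beyond the spread between libraries. Pdha1 (ENSMUSG00000031299, chrX:160122209-160138413, minus strand), the E1 subunit that the kinases phosphorylate, stood at 125 ± 5.47 CPM in P2KO and 130 ± 5.47 in P2WT, and at 132 ± 6.44 in P2H2KO and 133 ± 7.67 in P2H2WT (SD, n = 4 each). The P2 line gave a log2 fold change of -0.043 (SE 0.059, 95% interval -0.18 to 0.090) and the P2H2 line 0.0054 (SE 0.069, 95% interval -0.15 to 0.16). Together these intervals span 0.885-fold to 1.12-fold, which excludes a rise of the size seen for Pdk1. Of the exon bases of Pdha1, 603 (16.1%) overlap exons of Map3k15 on the opposite strand, which had 249 to 469 counts per library, and whether the counting used strand is not given in the sources used here.

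Pdhb (ENSMUSG00000021748, chr14:8165996-8173025, minus strand), the other E1 subunit, ranged from 64.7 to 75.7 CPM in P2KO and from 62.2 to 73.7 in P2WT. Its range was 63.0 to 71.2 CPM in P2H2KO and 65.9 to 76.6 in P2H2WT. The log2 fold changes had opposite signs, 0.071 (SE 0.075) in the P2 line and -0.085 (SE 0.072) in the P2H2 line, and their difference of 0.14 (SE 0.10, 95% interval -0.072 to 0.36) did not pass the test. Dlat (ENSMUSG00000000168, chr9:50634633-50659780, minus strand), the E2 acetyltransferase, ranged from 45.0 to 51.8 CPM in P2KO, 43.6 to 53.8 in P2WT, 43.3 to 51.7 in P2H2KO and 46.4 to 52.6 in P2H2WT. Dlat gave log2 fold changes of -0.013 (SE 0.076) for P2 and -0.015 (SE 0.074) for P2H2, with groups that overlapped each time.

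The phosphatase genes oppose the kinases. Pdp1 (ENSMUSG00000049225, chr4:11958184-11966452, minus strand) stood at 7.90 ± 0.609 CPM in P2KO and 8.23 ± 0.847 in P2WT, and at 8.18 ± 0.525 in P2H2KO and 8.45 ± 1.46 in P2H2WT (SD, n = 4 each). It gave log2 fold changes of -0.045 (SE 0.099) for P2 and -0.032 (SE 0.13) for P2H2. Pdp2 (ENSMUSG00000048371, chr8:104591451-104599026, plus strand) varied more within groups. It stood at 11.003, 10.4, 14.2 and 10.5 CPM in P2KO (replicates 1, 5, 6 and 9) and at 12.0, 12.2, 13.6 and 10.5 in P2WT (replicates 3, 4, 7 and 10). In the P2H2 line it stood at 8.85, 11.8, 17.2 and 14.6 CPM in P2H2KO (replicates 11, 12, 15 and 17) and at 10.9, 11.9, 17.02 and 15.03 in P2H2WT (replicates 13, 14, 16 and 18). Low and high libraries occurred in each of these groups, and Pdp2 gave log2 fold changes of -0.053 (SE 0.12) for P2 and -0.048 (SE 0.21) for P2H2. The interval for Pdp2 in the P2H2 line, -0.52 to 0.43, was the widest among the 8 members tested there.

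Levels were compared between genes as CPM per kilobase of merged exons, averaged over the 16 libraries (± SD). Pdha1 was highest at 34.8 ± 1.78, before Pdk3 at 23.7 ± 1.81, Pdhb at 17.9 ± 1.24, Dlat at 10.01 ± 0.668 and Pdk1 at 5.32 ± 1.26. The ranges over libraries of these 5 neighbours did not overlap. Pdk2 at 2.77 ± 0.418, Pdp2 at 2.21 ± 0.428 and Pdp1 at 1.82 ± 0.191 overlapped with one another, and Pdk4 was lowest at 0.173 ± 0.122. With the longest annotated transcript as the length, Pdhb stood at 29.04 ± 2.01 and Pdk3 at 28.7 ± 2.19, so their order depends on the length used, while the order of the others was kept. The coefficient of variation over the 16 libraries was 5.12% for Pdha1, 6.67% for Dlat, 6.94% for Pdhb, 7.63% for Pdk3, 10.5% for Pdp1, 15.05% for Pdk2, 19.4% for Pdp2, 23.7% for Pdk1 and 70.5% for Pdk4.

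The wild-type groups of the lines were compared to see how far a level differed without the deletions. None of the 9 genes passed the edgeR test, against 0.227% of all genes (32 of 14080), and 1 of 9, Pdk4, was under an unadjusted p of 0.05, against 10.04%. DESeq2 called 0 of the 9. Pdk4 was also the only 1 of 9 whose groups did not overlap, against 7.71% of all genes, at 0.463 to 0.942 CPM in P2WT and 0.159 to 0.391 in P2H2WT. Its log2 difference, P2WT minus P2H2WT, was 1.40 (SE 0.40, unadjusted edgeR p 0.00325, adjusted p 0.160). Pdk4 had 13 to 25 counts per library in P2WT and 4 to 10 in P2H2WT. It passed the filter on low counts in the fit of 16 libraries but not in the P2H2 line alone. Pdk4 was thus kept through the P2 libraries, where it is high. Its p and lack of overlap are therefore no independent support for a difference. Markers of several cell types differed beside Pdk4. All 8 bone stroma markers and all 8 endothelial markers had higher values in P2WT, with 8 and 5 at an unadjusted p under 0.05 and 1 and 0 past the adjusted threshold. All 6 megakaryocyte markers were also higher in P2WT (median 0.52, 1 at an unadjusted p under 0.05). All 12 neutrophil markers were lower there (median -0.18, 0 under that threshold). The bone stroma markers summed to 490 to 1369 CPM in P2WT against 176 to 320 in P2H2WT, and to 555 to 1159 in P2KO against 169 to 260 in P2H2KO. The endothelial sums were 76.7 to 93.7 in P2WT against 61.2 to 69.5 in P2H2WT, and 74.4 to 159 in P2KO against 63.3 to 70.8 in P2H2KO. The part of any of these markers in the Pdk4 difference was not tested, and line and deposited table cannot be told apart. For Pdk1 the wild-type groups differed by 0.039 (SE 0.096) on the log2 scale. For Epas1 they differed by 1.49 (SE 0.38, unadjusted edgeR p 0.00122, adjusted p 0.106), and DESeq2 called it.

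The library titles end in m or f, which the labels do not explain, with 10 m and 6 f libraries spread unevenly: P2KO and P2H2WT have 3 and 1 of these, and P2WT and P2H2KO have 2 and 2. With group in the model, 0 of the 9 genes passed the edgeR test for f against m, against 0.163% of all genes (23 of 14080). Pdhb alone was under an unadjusted p of 0.05, at -0.11 (SE 0.046), against 17.5% of all genes, and DESeq2 called 0 of the 9. Pdk3 and Pdha1, both on the X chromosome, gave 0.055 (SE 0.048) and 0.041 (SE 0.043). Pdp2 had the largest value of the 9, 0.24 (SE 0.13, unadjusted edgeR p 0.0838), and Pdk1 gave 0.086 (SE 0.070). With the suffix as a covariate the log2 fold change of Pdk1 was 0.58 in the P2 line and 0.67 in the P2H2 line, where the edgeR adjusted p became 0.0517.

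Several members followed markers of other states over the 16 libraries. Each of the 9 genes was set against a late granule score (mean log2 CPM of 8 genes of late neutrophil granules) and an erythroid score (11 genes), giving 18 relations adjusted together. Pdk3 was higher where the late granule score was higher, with Pearson r 0.747 (permutation p 0.0011, adjusted 0.0146) and Spearman rho 0.803 (permutation p 0.00045, adjusted 0.0081). Without the 2 libraries farthest from the median score r was 0.630, and it was 0.609 in the P2 line and 0.800 in the P2H2 line (8 libraries each). Dlat ran the other way, with r -0.634 (permutation p 0.00903, adjusted 0.0406) and rho -0.612 (permutation p 0.0142, adjusted 0.0639). For Dlat r was -0.436 without the 2 farthest libraries, P2KO replicate 6 and P2H2KO replicate 17, so that relation rests in part on them.

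Pdhb was higher where the erythroid score was higher, with r 0.696 (permutation p 0.00244, adjusted 0.0146) and rho 0.671 (permutation p 0.00549, adjusted 0.0329). It gave r 0.628 without the 2 farthest libraries, 0.693 in the P2 line and 0.714 in the P2H2 line. Pdp2 was lower where the erythroid score was higher, with r -0.706 (permutation p 0.00224, adjusted 0.0146) and rho -0.688 (permutation p 0.00454, adjusted 0.0329). It gave r -0.592 without the 2 farthest libraries, -0.702 in the P2 line and -0.788 in the P2H2 line. Pdk1 splits by genotype, so its relation was taken from deviations from the group means, where r was -0.396 with the late granule and 0.166 with the erythroid score; this was not tested. The remaining relations did not pass in the adjusted Pearson test, and all members share depth and scaling with the scores in each library.

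**Figure D4:**
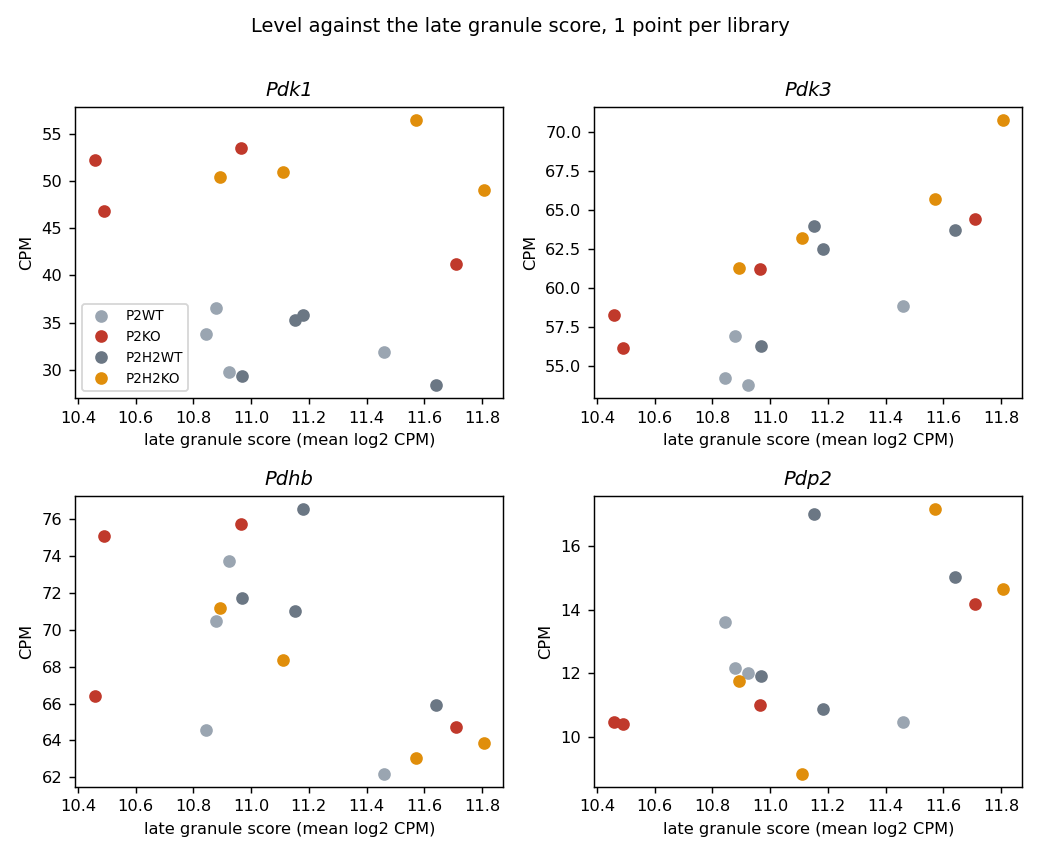
Level in CPM (y axis) of Pdk1, Pdk3, Pdhb and Pdp2 against the late granule score (x axis, mean log2 CPM), 1 point per library, coloured by group. Pdk3 runs with the score (r 0.747), while the Pdk1 values split by genotype over the range of the score. Against this score Pdhb (r -0.560) and Pdp2 (r 0.543) did not pass, with adjusted permutation p of 0.0651 and 0.0686. Their relations that passed were with the erythroid score, which is not plotted.

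As a description over libraries that share depth and scaling, Pdhb and Dlat had the highest correlation of log2 CPM, 0.644 over all libraries and 0.694 within groups. Pdha1 and Pdp2 followed at 0.597 (0.537 within groups) and Pdp1 and Pdp2 at 0.575 (0.557 within groups). The lowest values were those of Pdk3 with Pdk4, at -0.570 (-0.287 within groups), and with Dlat, at -0.501 (-0.592 within groups), and Pdk3 and Pdhb had -0.336 (-0.495 within groups). Pdk1 and Pdk3 had 0.424 over all libraries and 0.0175 within groups.

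The 3 genes most like each member were taken from 9811 others with a mean of at least 5 CPM, by Pearson correlation of log2 CPM over the 16 libraries. For Pdk1 they were Gm6472 (0.933), Pfkl, the liver-type phosphofructokinase of glycolysis (0.931), and Tpi1, triosephosphate isomerase (0.905). Within groups the same correlations were 0.474, 0.272 and 0.0385, so the likeness lay mostly between the groups. For Pdk3 they were Etfrf1 (0.902), Enpp5 (0.901) and Bloc1s3 (0.887), with 0.924, 0.817 and 0.881 within groups. For Pdk2 they were Aldh7a1, Clstn3 and Fance (0.810 to 0.826). Without the 2 libraries farthest from the Pdk2 median, these correlations were 0.572 to 0.623. Treated likewise, the genes most like the other members gave 0.651 to 0.931. For Pdk4, where 9812 genes were compared, they were Ttll4, Zkscan1 and Vps13a (0.887 to 0.918), with 0.795, 0.643 and 0.783 within groups. For Pdha1 they were Ostc, Ybx1 and Atp6ap2 (0.915 to 0.920), for Pdhb Rtn4ip1, Eipr1 and Nars (0.892 to 0.923), and for Dlat Ythdc2, Nup107 and Dis3l (0.870 to 0.879). For Pdp1 they were Eef1akmt1, Tm9sf4 and Stxbp6 (0.818 to 0.845), and for Pdp2 Cyb5b, Usp12 and 5031439G07Rik (0.908 to 0.952).

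Genes around the complex were described by lists. Of 9 tested genes for the other subunits, the lipoyl groups and the thiamine cofactor, edgeR and DESeq2 called 0 in either line, in the difference and in the mean, with 0 at an unadjusted p under 0.05. The median log2 fold change in the mean of the effects was 0.0050, beside 0.0029 for all genes. The smallest p belonged to Lipt2, a lipoyl transferase (0.18, SE 0.10), and Slc19a2, a thiamine transporter (0.11, SE 0.078). Of 13 tested genes that make, carry or divert pyruvate, edgeR called 0 in these comparisons, with 2 in each line and in the mean at an unadjusted p under 0.05. DESeq2 called 1, Ldha, in the P2H2 line and in the mean. Ldha, the lactate dehydrogenase subunit that turns pyruvate to lactate, gave 0.40 (SE 0.082, edgeR adjusted p 0.0827), and the lactate exporter Slc16a3 gave 0.51 (SE 0.21, edgeR adjusted p 0.9998). The median of this list in the mean was 0.0068.

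Of 11 genes that use or otherwise supply acetyl-CoA, edgeR and DESeq2 called 0 in these 4 comparisons, with 1 in the P2 line at an unadjusted p under 0.05 (edgeR) and a median of 0.0067 in the mean. The 2 with the smallest p there were Cpt1a, which brings fatty acids into mitochondria (-0.15, SE 0.12), and Slc25a1, the citrate carrier (0.048, SE 0.048). By line, Cpt1a gave -0.37 (SE 0.13, unadjusted edgeR p 0.0179) for P2 and 0.079 (SE 0.19) for P2H2. Of 8 tested genes of the related 2-oxoglutarate and branched-chain complexes, edgeR and DESeq2 also called 0. By edgeR 1 gene in the P2H2 line, 1 in the difference and 1 in the mean had an unadjusted p under 0.05, and the median in the mean was -0.033. Dhtkd1, an E1-like subunit, gave -0.52 (SE 0.19, edgeR adjusted p 0.919), and Bckdhb, a branched-chain E1 subunit, gave -0.087 (SE 0.079). By line, Bckdhb gave 0.14 (SE 0.14) for P2 and -0.30 (SE 0.12, unadjusted edgeR p 0.0305) for P2H2. The difference of its effects was 0.43 (SE 0.16, unadjusted edgeR p 0.0169, adjusted p 0.999).

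Among 15 tested regulators that textbooks name for Pdk genes, Egln3 was the 1 called. Egln3 encodes PHD3, itself a HIF target, and it rose by 1.08 on the log2 scale (SE 0.10, edgeR adjusted p 0.00385) in the P2H2 line and by 0.91 (SE 0.092, edgeR adjusted p 8.35e-05) in the mean. In the P2 line it gave 0.75 (SE 0.15, edgeR adjusted p 0.537), where DESeq2 called it. Hif1a, which encodes HIF1α and was picked after its values were seen, stood at 77.2 ± 8.66 CPM in P2KO against 99.3 ± 16.8 in P2WT, and at 86.8 ± 15.9 in P2H2KO against 89.3 ± 10.7 in P2H2WT (SD, n = 4 each). Hif1a gave -0.35 (SE 0.13, unadjusted edgeR p 0.0245, adjusted p 0.99999) for P2, -0.026 (SE 0.13) for P2H2 and -0.19 (SE 0.098) in the mean, and the difference of its effects, -0.33 (SE 0.20), did not pass the test. Of the 15 regulators, 1 was higher (Egln3) and 1 lower at an unadjusted p under 0.05 in each line and in the mean. The lower gene was Hif1a for P2 and Pparg, a nuclear receptor also picked after its values were seen, for P2H2 (-0.58, SE 0.18, unadjusted edgeR p 0.00969) and in the mean (-0.37, SE 0.13, unadjusted edgeR p 0.0112, adjusted p 0.845).

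Of 18 genes that textbooks name beside Pdk1 as induced by hypoxia, edgeR called 4 for P2 (Aldoc, Pfkl, Tpi1 and Ankrd37), 6 for P2H2 (these and Bnip3 and P4ha1) and 7 for the mean (these 6 and Mif), all higher. Ankrd37, an ankyrin repeat protein, rose by 2.71 on the log2 scale in the mean (SE 0.12) and the aldolase Aldoc by 1.65 (SE 0.11). Pfkl rose by 0.83 (SE 0.047) and Tpi1 by 0.76 (SE 0.049), both beside 0.63 (SE 0.068) for Pdk1. Bnip3, a mitophagy receptor, rose by 1.08 (SE 0.086), the collagen prolyl hydroxylase subunit P4ha1 by 0.83 (SE 0.073) and the cytokine Mif by 0.58 (SE 0.069). DESeq2 called 7, 11 and 11 of them, all higher. The list had median log2 fold changes of 0.47 (P2), 0.61 (P2H2) and 0.54 (mean), beside 0.020, 0.0011 and 0.0029 for all genes. In the difference of the effects edgeR and DESeq2 called 0 of the 18, with 0 at an unadjusted p under 0.05 and a median of -0.18. The list was chosen with these results known and is no independent evidence of its direction.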

How the data were processed

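Gene expression was measured by RNA sequencing in 16 libraries grouped by the labels. Raw counts per Ensembl gene were deposited by the authors in 2 tables, 1 for each line, per the file headers, and were used as they stand. The submitters' processing notes name HTSeq and mm10. Aligner, annotation release and use of strand are not given in the sources used here. Library totals (23450746 to 28601284 counts) set the precision, and low counts, as for Pdk4, carry large counting error.

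Symbols, coordinates and exon lengths came from GENCODE M21 on GRCm38 (49326 of 49585 identifiers matched), and promoters from RefSeq (8 of 9 members matched). In R 4.3.3, edgeR 4.0.16 (filterByExpr, TMM, estimateDisp, robust glmQLFit, glmQLFTest, two-sided) was run on each line's 8 libraries. A fit of all 16 libraries gave the difference and the mean of the effects and the comparison of controls, and with the suffix added f against m. P-values received the Benjamini-Hochberg adjustment across every gene tested (threshold 0.05). CPM are counts scaled to the TMM-adjusted library size, and log2 CPM used a prior count of 2. SEs and 95% intervals come from the quasi-likelihood F statistic and its degrees of freedom. Permutation tests used 1e+05 permutations, two-sided. The test was checked on simulated data.

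All 9 members are named. From each pathway list, called genes are named, or where none passed, the 2 with the smallest p in the mean of the effects; for each member, the 3 genes most correlated over the libraries. The members, lists and rules were chosen with earlier results of these data known. Alternatives were RLE and upper-quartile scaling, a minimum of 10 counts per library or no minimum, DESeq2 1.42.0, covariates (suffix, title number, erythroid and late granule scores), a fit of all 16 libraries, transcript length, and leaving out each library.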

Additional observations from a re-analysis of the deposited data

Results flagged for a closer look

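Of the 36 sets of 4 CPM values (9 genes in 4 groups), 2 held a library that lay far from the other 3 of its group; chance alone gives such a library in about 1 set in 20. Pdk2 in P2H2KO replicate 12 stood at 11.2 CPM, against 7.48 to 7.86 in the other 3, and leaving it out moved the log2 fold change of Pdk2 in the P2H2 line from -0.051 to -0.21, with no call either way. Pdp2 in P2KO replicate 6 stood at 14.2 CPM, against 10.4 to 11.003 in the other 3. That library also had the highest neutrophil and the lowest erythroid marker sum of its group, and the part of these in the Pdp2 value was not tested.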

How the results depend on the processing

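Pdk1 kept its direction under every setting run in the P2 line, the P2H2 line and the mean of the effects. In the P2 line Pdk1 was called in 3 of 9 alternatives. These were the score covariates (0.54), the fit of all 16 libraries (0.56) and DESeq2 (0.55), so that 1 member was called under each. It was called in 0 of the 8 fits of that line without 1 library, with edgeR adjusted p from 0.0516 to 0.965. For P2H2 its call was lost under upper-quartile factors (0.69, edgeR adjusted p 0.0582) and with the suffix covariate (0.67), leaving 0 members called, and in all 8 fits without 1 library (0 members, log2 values 0.64 to 0.75). Why the calls were lost was not tested, and the fits without 1 library also held fewer libraries. In the mean of the effects the call held under all settings. No paired analysis was possible because the groups compared share no replicate numbers in the titles. Counts under about 50 per library limit what can be said of Pdk4.

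The number of genes called moved more. In the P2 line (6) it was 24 with the score covariates, 10 in the fit of all 16 libraries and 24 by DESeq2. For P2H2 (10) it was 19 with the title number covariate, 20 with the score covariates, 39 by DESeq2 and 6 to 9 without 1 library. In the mean (24) it was 68 with the score covariates, 63 by DESeq2 and 15 (without P2WT replicate 4) to 30 when 1 library was left out. Between the wild-type groups (32) it was 9 without a filter, 0 with at least 10 counts in every library, 124 with the suffix, 144 with the title number, 12 with the score covariates, 268 by DESeq2 and 0 (without P2WT replicate 3) to 182 (without P2KO replicate 9) when 1 library was left out. For the suffix (23) it was 58 without a filter, 9 with at least 10 counts in every library, 8 with the title number, 67 with the score covariates, 418 by DESeq2 and 17 to 1066 without 1 library, the last without P2KO replicate 9.

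Some differences changed sign, none of them a call. For P2H2, Pdha1 gave -0.0063 without a filter, -0.020 with the suffix and -0.027 with the scores, Dlat gave 0.0077 with the suffix, and with the title number Pdp1 gave 0.045 and Pdp2 0.12. In the difference of the effects, Pdk3 gave -0.0014 with the title number, Dlat 0.0018 with upper-quartile factors, 0.0016 without a filter and 0.0094 with the title number, Pdp1 0.034 with the suffix and 0.056 with the scores, and Pdp2 0.12 with the suffix and 0.20 with the scores. Between the wild-type groups, the title number gave -0.026 for Pdk1, -0.0026 for Pdk2, -0.20 for Dlat, 0.079 for Pdp1 and 0.22 for Pdp2 (-0.18 without the covariate), and the scores gave -0.018 for Pdk1 and -0.031 for Dlat. The title number values come from a fit in which number and line nearly coincide, so these sign changes say little. For the suffix, the title number gave -0.00037 for Pdk3 and 0.044 for Dlat, and Pdk4 gave -0.15 with the scores and -0.012 by DESeq2.

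Leaving out 1 library gave these ranges where a sign changed. In the P2 line they were -0.062 to 0.023 for Dlat, -0.094 to 0.015 for Pdp1 and -0.17 to 0.0031 for Pdp2. For P2H2 they were -0.21 to 0.012 for Pdk2, -0.024 to 0.031 for Pdha1, -0.048 to 0.031 for Dlat, -0.13 to 0.034 for Pdp1 and -0.20 to 0.099 for Pdp2. In the difference they were -0.20 to 0.030 for Pdk2, -0.038 to 0.045 for Pdk3, -0.063 to 0.027 for Dlat, -0.094 to 0.075 for Pdp1 and -0.17 to 0.14 for Pdp2. In the mean they were -0.031 to 0.0067 for Pdhb, -0.046 to 0.00044 for Dlat and -0.14 to 0.017 for Pdp2. Between the wild-type groups they were -0.035 to 0.091 for Pdk1, -0.040 to 0.12 for Pdk2, -0.034 to 0.074 for Dlat and -0.13 to 0.038 for Pdp1. For the suffix they were -0.013 to 0.15 for Pdk2 and -0.42 to 0.16 for Pdk4.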
